A study of Mus musculus with 6 samples.

Results

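Cholesterol synthesis genes were followed through 6 droplet single-cell RNA libraries of mouse small intestinal organoids. The genes were chosen by symbol, with earlier results of these data known: Hmgcs1, Idi1, Fdft1, Sqle, Lss, Srebf2 and Insig1. Each symbol matched 1 of the 32285 gene rows in every library, so all 7 genes could be used. None of the 7 is an uptake receptor, and uptake is covered below by the genes of a separate list. The level of a gene is given in CPM, the molecules (UMIs) of the gene, summed over all cells of a class in a library, per 1000000 UMIs of those cells. Levels are compared within a gene, not between genes.

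Animal cells make cholesterol from acetyl-CoA through mevalonate, isoprenoids, squalene and lanosterol. The transcription factor SREBP2, the product of Srebf2, is held in the endoplasmic reticulum by SCAP and the INSIG proteins while sterol is plentiful, and is released to switch on the enzymes of the pathway, uptake genes and Insig1 when sterol runs low. In the small intestine, enterocytes also absorb dietary and biliary cholesterol through NPC1L1 and return part of it to the lumen through ABCG5 and ABCG8.

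All organoids were grown to day 3 from adult mouse intestine. WT organoids were kept without EIPA (DMSO, -EIPA, n = 2 libraries) or with 5 µM EIPA (+EIPA, n = 2), an amiloride derivative. The other 2 libraries came from a line of the same organoids that carried a lentiviral Dox-inducible Cas9-EGFP with a guide, selected with puromycin and grown from single clones. It was used without Dox (-Dox, n = 1) and with 2 µg/mL Dox (+Dox, n = 1). Every library was made from sorted live cells, which for +Dox were also sorted for GFP, so the sort and Dox cannot be told apart. The libraries hold 14319 to 25481 barcodes, of which 12083 to 18211 were kept (at least 1000 genes and under 20% mitochondrial UMIs), with a median of 11478 to 17020 UMIs per cell. Markers of immune, mesenchymal and endothelial cells were each at or under 0.581 CPM in sum in every library. Cells were grouped into 7 classes named from marker genes, without using the 7 genes or any gene of the lists below: intestinal stem cell (ISC)-like, proliferating, enterocyte-like, Goblet/Paneth-like, enteroendocrine (EEC)-like, tuft-like and regenerative-like.

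The start regions of 3 of the genes are shown because most of the genes had lower levels in the same libraries: Hmgcs1, the only one of the 5 genes with a region searched that held the SREBP letters; Insig1, which differed most between +EIPA and -EIPA in ISC-like cells; and Srebf2, which differed least there. Each runs 5′ to 3′ over 300 bases around the RefSeq start in GRCm38.p6, on the + strand, from 250 bases before the start to 50 after it. Capitals mark TCACNCCAC (the letters searched for SREBP), CCAAT or its reverse ATTGG (NF-Y), and GGGCGG or its reverse CCGCCC (Sp1). The positions are chr13:119690101-119690400 for Hmgcs1, chr5:28071162-28071461 for Insig1 and chr15:82147019-82147318 for Srebf2.
Hmgcs1: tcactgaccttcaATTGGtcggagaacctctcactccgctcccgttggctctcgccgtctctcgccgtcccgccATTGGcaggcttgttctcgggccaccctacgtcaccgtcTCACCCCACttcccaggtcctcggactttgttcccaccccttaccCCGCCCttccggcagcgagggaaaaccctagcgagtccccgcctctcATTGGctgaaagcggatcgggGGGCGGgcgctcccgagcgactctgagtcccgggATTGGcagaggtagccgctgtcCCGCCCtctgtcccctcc
Insig1: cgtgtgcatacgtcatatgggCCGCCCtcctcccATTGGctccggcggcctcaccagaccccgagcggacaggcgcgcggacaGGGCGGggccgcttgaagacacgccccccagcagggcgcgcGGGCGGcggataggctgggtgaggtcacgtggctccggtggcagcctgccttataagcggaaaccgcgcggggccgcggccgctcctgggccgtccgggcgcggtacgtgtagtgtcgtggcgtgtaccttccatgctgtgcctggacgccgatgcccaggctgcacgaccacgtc
Srebf2: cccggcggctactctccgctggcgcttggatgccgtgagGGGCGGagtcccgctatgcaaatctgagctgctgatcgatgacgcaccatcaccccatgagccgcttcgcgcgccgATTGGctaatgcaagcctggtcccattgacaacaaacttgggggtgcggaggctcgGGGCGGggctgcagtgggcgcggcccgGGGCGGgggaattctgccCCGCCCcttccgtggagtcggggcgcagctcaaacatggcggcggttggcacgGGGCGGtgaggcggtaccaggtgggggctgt

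The Hmgcs1 region held TCACCCCAC, which starts 137 bases before the start, and 4 copies of ATTGG. The Insig1 region held 1 copy of ATTGG and 3 of the Sp1 letters, and the Srebf2 region 1 and 5. The table of start regions held 5 of the 7 genes, the others being Idi1 (chr13:8885356-8885655) and Lss (chr10:76531355-76531654). All 5 held the NF-Y and the Sp1 letters on one strand or the other, and 1 of 5 the SREBP letters. Over 27025 start regions of this length, 37.9% held the NF-Y letters, 35.9% the Sp1 letters and 1.22% the SREBP letters. Of 16 sterol synthesis enzymes with a region, Hmgcs1 included, 14 held the NF-Y letters, 15 the Sp1 letters and 1 the SREBP letters. These are matches of letters, not binding sites.

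Hmgcs1 (chromosome 13, 119690379 to 119708260 in GRCm38) encodes the synthase that makes HMG-CoA, an early step of the pathway. Its median level was highest in enterocyte-like cells, with a lowest library of 281 CPM, a median of 307 and a highest of 414. It was lowest in ISC-like cells, at 95.8, 135 and 184 CPM in the same order. Enterocyte-like cells were above Goblet/Paneth-like cells, the next class by median, in 6 of 6 libraries, but above EEC-like cells in only 4 of 6. EEC-like cells held more in both -EIPA libraries (355 and 292 CPM against 346 and 286), so the first place was not separated. ISC-like cells were below proliferating cells in 6 of 6. Among the 4 classes from Goblet/Paneth-like to tuft-like, with medians from 270.2 to 214 CPM, no neighbours in the order were separated in 6 of 6 libraries.

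Insig1 (chromosome 5, 28071363 to 28078662), the sterol-responsive anchor that keeps SCAP and SREBP2 in the endoplasmic reticulum, and Lss (chromosome 10, 76531588 to 76557138), lanosterol synthase, were ordered alike at both ends. Insig1 was highest in enterocyte-like cells (194, 200.2 and 261 CPM for the lowest, median and highest library) and lowest in ISC-like cells (36.3, 67.5 and 108). Lss was also highest in enterocyte-like cells (49.6, 62.8 and 93.7 CPM) and lowest in ISC-like cells (19.6, 25.6 and 37.9). Both genes were above the next class in 6 of 6 libraries at the top of the order and below it in 6 of 6 at the bottom.

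Sqle (chromosome 15, 59315077 to 59331192) encodes squalene epoxidase, the first oxygen-requiring step. It had medians of 141 CPM in enterocyte-like cells, 119 in regenerative-like cells and 65.5 in ISC-like cells, each separated from its neighbour in the order in 6 of 6 libraries. EEC-like cells, further down by median, held more Sqle than regenerative-like cells in both -EIPA libraries (141 and 110 CPM against 135 and 102). They also held more in the second +EIPA library (99.0 against 92.8), so the second place was not separated. Fdft1 (chromosome 14, 63145150 to 63179578, minus strand) encodes squalene synthase, the step that commits isoprenoids to sterols. Its median was 128 CPM in enterocyte-like cells and 59.9 in ISC-like cells. Enterocyte-like cells were above tuft-like cells, the next class for Fdft1, in 5 of 6 libraries, so the first place was not separated.

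Idi1 and Srebf2 had another order. Idi1 (chromosome 13, 8885501 to 8892451) encodes the isomerase that makes dimethylallyl pyrophosphate. It was first in proliferating cells (215, 303 and 367 CPM), which were above enterocyte-like cells in only 4 of 6 libraries. The last 4 classes for Idi1, from Goblet/Paneth-like to EEC-like, had medians between 198 and 196 CPM and did not separate. Srebf2 (chromosome 15, 82147181 to 82205379) was first in EEC-like cells (87.99, 91.2 and 110.1 CPM), above regenerative-like cells in 4 of 6 libraries. Like 5 of the other 6 genes, it was last in ISC-like cells (46.6, 50.8 and 62.1 CPM), below proliferating cells in 6 of 6.

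**Figure D1:**
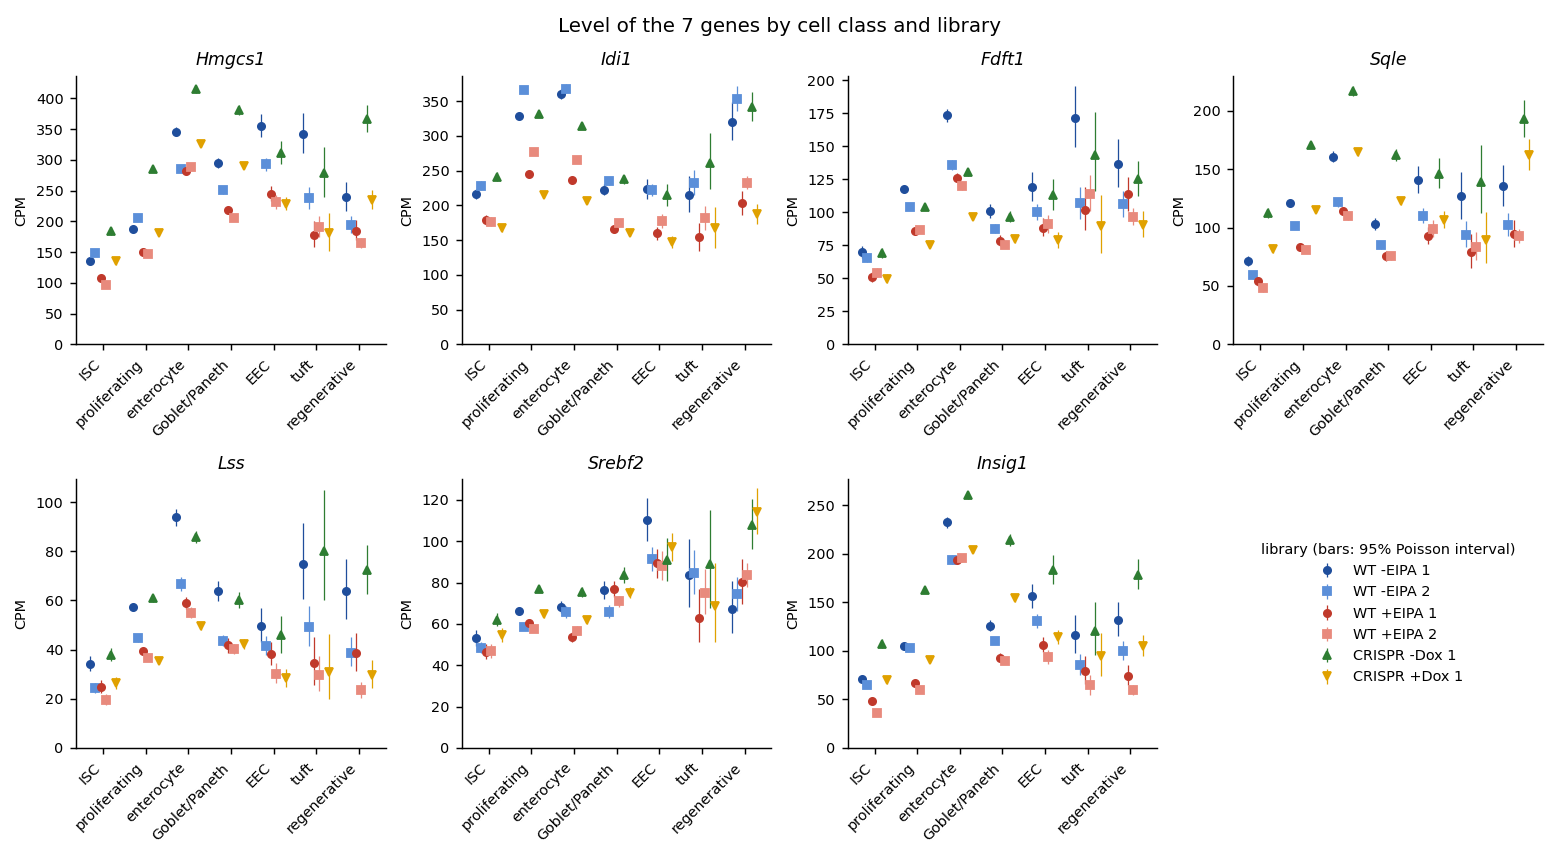
Level of each of the 7 genes in CPM (vertical axes from 0) in 7 cell classes (horizontal axis, names without "-like"), 1 point per library with its 95% Poisson interval, which covers counting error only. ISC-like cells hold the lowest points of 6 genes, and the +EIPA (red) and +Dox (yellow) points mostly lie below the -EIPA (blue) and -Dox (green) points of the same class.

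The first question was whether the genes differ along the absorptive lineage, from ISC-like to enterocyte-like cells of the same library. All 7 genes were higher in enterocyte-like cells in 6 of 6 libraries, where 27.1% of genes were. Both classes come from the same 6 libraries, which were kept as blocks in edgeR's quasi-likelihood test with Benjamini-Hochberg adjustment. All 7 passed as higher, where 39.6% of 13416 genes did, and 5 of the 7 were also at least 2-fold higher, where 18.5% of genes were.

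Insig1 went from 70.9, 65.4, 48.1, 36.3, 108 and 69.7 CPM in ISC-like cells (both -EIPA, both +EIPA, -Dox and +Dox libraries, an order kept below) to 233, 194, 194, 196, 261 and 204 CPM in enterocyte-like cells. The lowest enterocyte-like value was above the highest ISC-like value. The log2 fold change was 2.04 (SE 0.15, edgeR adjusted p = 9.26e-07). Those of Hmgcs1 and Lss were 1.58 (SE 0.10, adjusted p = 3.20e-07) and 1.57 (SE 0.09, adjusted p = 1.74e-07). Fdft1 (1.40, SE 0.09, adjusted p = 2.38e-07) and Sqle (1.36, SE 0.07, adjusted p = 7.83e-08) followed. The smaller differences were those of Idi1 (0.81, SE 0.08, adjusted p = 6.92e-06) and Srebf2 (0.58, SE 0.06, adjusted p = 6.00e-06). With library size in place of TMM, the median of all genes moved from -0.02 to -0.31 on the log2 scale, and all 7 genes were still called higher.

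The wider pathway was described by lists of genes. Of the 21 sterol synthesis enzymes, 20 were higher in enterocyte-like cells and 1 lower (median log2 fold change 1.38, against -0.02 over all genes). Sc5d, a late sterol desaturase, was among the higher ones (2.16, SE 0.09, edgeR adjusted p = 2.29e-08). Of 10 uptake and transport genes tested, 5 were higher and 3 lower. Npc1l1 was higher (3.92, SE 0.14, adjusted p = 1.03e-08), and Scarb1, an HDL receptor, was lower (-1.74, SE 0.18, adjusted p = 1.03e-05). Of 7 efflux and esterification genes tested, 6 were higher, among them Abcg5 (4.01, SE 0.17, adjusted p = 2.84e-08). Of 12 fatty acid synthesis genes, 4 were higher and 3 lower. Over all genes, 40.4% were lower.

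**Figure D2:**
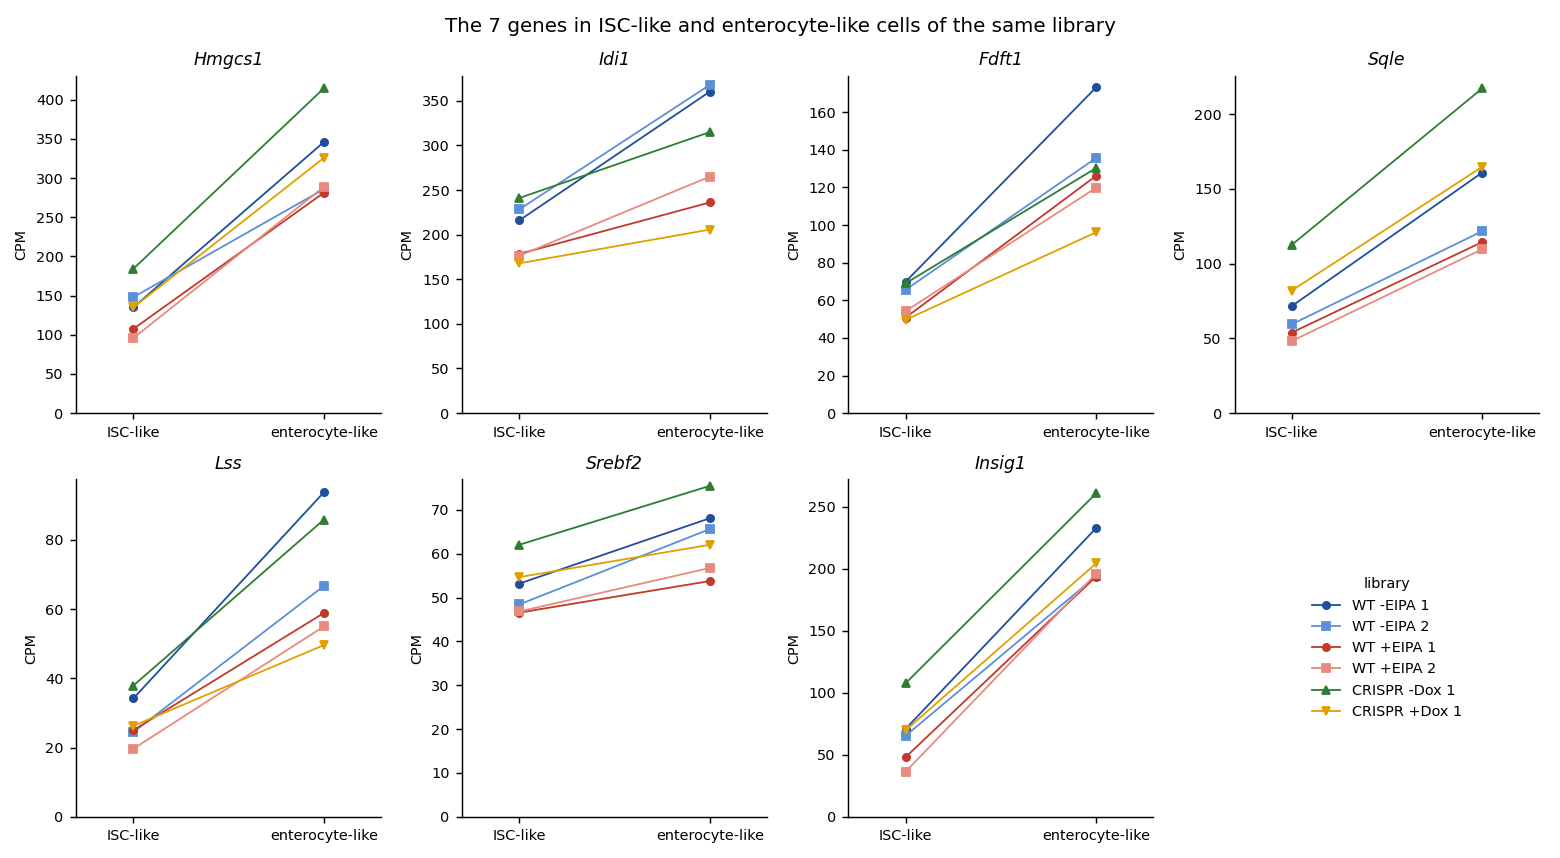
Level of the 7 genes in CPM (vertical axes from 0) in ISC-like and enterocyte-like cells, with a line for each of the 6 libraries. All 42 lines go up from ISC-like to enterocyte-like cells.

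The second question was whether the 7 genes differed between +EIPA and -EIPA. In the sum over all cells, each gene had a lower CPM in both +EIPA libraries than in both -EIPA libraries. Non-overlap downwards was also seen for 33.6% of all 15890 genes tested. Hmgcs1 was at 230.1 and 219.5 CPM in -EIPA and 196 and 189 in +EIPA. Idi1 was at 306 and 322, against 225 and 243. Insig1 was at 132 and 116, against 105 and 94.8. The lowest -EIPA value was above the highest +EIPA value for each of these genes.

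Relative to the other genes (TMM scaling), the differences in all cells were small for Srebf2 (-0.00 on the log2 scale), and for the other 6 genes lay between -0.14 (Hmgcs1) and -0.34 (Idi1, SE 0.10). Several of them depended on which -EIPA library was used. Without the first, Lss had -0.05, Fdft1 -0.06, Sqle -0.10 and Insig1 -0.15, and without the second -0.48, -0.31, -0.39 and -0.32. None of the 7 passed edgeR's test (adjusted p from 0.374 to 0.998), as none of all genes did as lower (0%). At an unadjusted p under 0.05, 1 of 7 was lower, where 2.7% of genes were, and DESeq2 called 0 of 7 and 0.454% of genes lower. The study's source data set the same-numbered -EIPA and +EIPA libraries beside each other as experiments 1 and 2. With the experiment as a replicate block, edgeR called Idi1 lower (adjusted p = 0.0378), 1 of 7 where 0.812% of genes were called lower. In a sum over all cells, a different mix of classes and a different level within a class cannot be told apart. Proliferating cells made up 38.0% and 35.1% of the -EIPA cells and 31.8% and 30.7% of the +EIPA cells, and enterocyte-like cells 19.6% and 14.0% against 23.5% and 20.4%.

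In ISC-like cells, 6 of the 7 genes had no overlap between -EIPA and +EIPA and were lower in +EIPA, where 28.3% of genes were. Insig1 had the largest difference of the 7. It was at 70.9 and 65.4 CPM in -EIPA, and at 48.1 and 36.3 in +EIPA, with a log2 fold change of -0.63 (SE 0.14). Hmgcs1 was at 135 and 148 CPM against 107 and 95.8 (-0.41, SE 0.10). Both experiments were lower for both genes, and more so in experiment 2, where the log2 ratios were -0.85 for Insig1 and -0.63 for Hmgcs1.

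The enzymes below Hmgcs1 in the pathway were lower in both experiments too. Idi1 was at 216 and 228 CPM in -EIPA ISC-like cells and at 179 and 176 in +EIPA (-0.26, SE 0.09). Fdft1 was at 69.9 and 65.6 against 50.8 and 54.2 (-0.30, SE 0.09). Sqle was at 71.5 and 59.4 against 53.8 and 48.2 (-0.29, SE 0.12), or -0.16 without the first -EIPA library. For Lss, which was at 34.2 and 24.5 against 24.99 and 19.6 (-0.32, SE 0.19), the groups overlapped, and its log2 fold change was -0.08 without the first -EIPA library and -0.54 without the second. Srebf2 differed little, with 53.2 and 48.4 CPM against 46.6 and 46.8 (-0.05, SE 0.09).

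The test across all genes called 0 of 7 in ISC-like cells (edgeR adjusted p = 0.9996 for each gene), and 0% of all genes as lower. At an unadjusted p under 0.05, 5 of 7 were lower, where 2.1% of genes were. DESeq2 called 0 of 7, and 0.084% of genes lower. With the replicate block edgeR called 6 of 7 lower, all but Srebf2, where 2.37% of genes were called lower. Their adjusted p under the block ran from 6.90e-08 for Insig1 to 0.0368 for Lss. The block leaves 1 residual degree of freedom per gene, so these values rest on the spread that edgeR shares across genes. The summed enterocyte markers in ISC-like cells were at 931 and 734 CPM in -EIPA and 1019 and 957 in +EIPA, and their part in the result was not tested.

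In proliferating cells 6 genes were lower without overlap, all but Srebf2, where 26.6% of genes were. In ISC-like cells Lss had been the exception. Insig1 was at 105 and 104 CPM in -EIPA and 67.5 and 59.5 in +EIPA, a log2 fold change of -0.66 (SE 0.08, edgeR adjusted p = 0.220). Sqle was at 121 and 102 CPM against 83.1 and 80.5 (-0.38, SE 0.09). Lss was at 57.2 and 44.5 against 39.4 and 36.5 (-0.36, SE 0.12), or -0.19 without the first -EIPA library and -0.51 without the second. Both +EIPA libraries of each of these genes lay below both -EIPA libraries.

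Idi1 had 329 and 367 CPM in -EIPA proliferating cells against 245 and 277 in +EIPA (-0.35, SE 0.12). Hmgcs1 had 187 and 205 against 149.8 and 147 (-0.34, SE 0.09). Fdft1 had 117 and 104 against 85.9 and 86.7 (-0.29, SE 0.08). The groups of Srebf2 overlapped, at 66.3 and 58.6 against 60.5 and 57.7 (-0.02, SE 0.08).

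Again 0 of 7 passed edgeR's adjusted threshold (adjusted p from 0.220 to 0.9998; 0% of all genes were called lower). At an unadjusted p under 0.05, 6 of 7 were lower, where 1.9% of genes were. DESeq2 called Insig1 alone (adjusted p = 5.35e-08), 1 of 7 where 0.343% of genes were called lower. With the replicate block edgeR called 6 of 7 lower, where 1.85% of genes were, with adjusted p from 0.000197 (Insig1) to 0.0182 (Fdft1). The summed enterocyte markers in proliferating cells were at 1355 and 1131 CPM in -EIPA and 1528 and 1408 in +EIPA, and their part in the result was not tested. The replicate block and DESeq2 thus call genes that the reported fit does not.

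In enterocyte-like cells Insig1 and Hmgcs1 overlapped between the groups. Insig1 was at 233 and 194 CPM in -EIPA and 194 and 196 in +EIPA, and Hmgcs1 at 346 and 286 against 281 and 289. Only experiment 1 was lower for either gene. Their log2 fold changes were -0.00 (SE 0.16) and -0.02 (SE 0.16). The other 5 genes were lower without overlap, where 41.8% of genes were. Idi1 was at 360.4 and 368 CPM against 236 and 265 (-0.41, SE 0.15), Lss at 93.7 and 66.7 against 58.9 and 55.0 (-0.37, SE 0.19). Without the first -EIPA library Lss had -0.05, Fdft1 0.03, Sqle 0.05, Hmgcs1 0.17 and Insig1 0.18, and without the second -0.62, -0.39, -0.42, -0.18 and -0.15.

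In this class 0 of 7 passed edgeR's test (adjusted p from 0.259 to 0.993), where 0.0158% of genes were called lower. At an unadjusted p under 0.05 only Idi1 was lower, 1 of 7 where 6.66% of genes were. DESeq2 called 0 of 7, and 0.615% of genes lower. The replicate block called 0 of 7, and 0.921% of genes lower. Without the first -EIPA library the median log2 fold change of the 7 was 0.032 and without the second -0.39, against -0.20 with all 4. The class itself was made up differently: the cluster led by Reg3a, Apoc3 and Fabp1 held 35.4% and 26.1% of it in -EIPA and 44.7% and 44.6% in +EIPA, and its summed enterocyte markers were at 36277 and 22896 CPM against 50156 and 50548. The part of these in the result was not tested. Within that cluster all 7 genes were lower in both experiments, with log2 ratios of CPM of -0.30 and -0.13 for Insig1 and -0.69 and -0.72 for Idi1. Over all clusters counted, 43.9% of gene and cluster pairs were lower in both, among genes with a mean of at least 20 CPM. The share in this cluster alone, and the ratios in the 2 other clusters of the class, are not given here. In the cluster of this class led by Apoa4 and Apob, Insig1 had -0.15 in experiment 1 and 0.44 in experiment 2.

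Whether the EIPA difference itself differs between enterocyte-like and ISC-like cells was tested as an interaction in edgeR. For Insig1 it was 0.67 on the log2 scale (SE 0.16, adjusted p = 0.0755) and for Hmgcs1 0.43 (SE 0.17, adjusted p = 0.211), less negative in enterocyte-like cells. For the other 5 genes it lay between -0.13 and 0.14 (adjusted p of 0.621 or more). So 0 of 7 passed, where 1.2% of 13090 genes did. At an unadjusted p under 0.05 there were 2 of 7, Insig1 and Hmgcs1, where 18.1% of genes were. With clusters made without correction for library, Hmgcs1 passed (0.60, adjusted p = 0.0418), 1 of 7 where 1.41% of genes did. In those clusters the main ISC-like cluster drew 43.6% of its cells from the second -EIPA library, and a cluster led by Gkn3, Mcm3 and Olfm4, named proliferating, drew 50.2% from the second +EIPA library.

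The 4 rarer or secretory classes were described by counts. With no overlap, 6 of 7 genes were lower in Goblet/Paneth-like cells (28.5% of genes), 7 in EEC-like cells (19.1%), 6 in tuft-like cells (24.3%) and 5 in regenerative-like cells (30.7%). Some of these differences depended on which -EIPA library was used. Without the first, Lss had -0.03 in Goblet/Paneth-like cells, Fdft1 0.10 in tuft-like cells, and Fdft1 0.07 and Sqle -0.03 in regenerative-like cells. Without the second these were -0.53, -0.59, -0.30 and -0.44. No gene of the 7 passed edgeR's test in any of the 4 classes. Genes called lower were 0% of all genes in Goblet/Paneth-like and EEC-like cells, 0.0205% in tuft-like and 0.246% in regenerative-like cells. At an unadjusted p under 0.05 there were 3, 5, 2 and 2 of 7 in this order, where 1.98%, 0.87%, 1.49% and 5.49% of genes were lower. DESeq2 called none of the 7 in these classes, and 0.103%, 0.0325%, 0.0103% and 0.655% of genes lower. With the replicate block edgeR called Insig1, Idi1 and Hmgcs1 lower in Goblet/Paneth-like cells (3 of 7, against 1.14% of genes) and in EEC-like cells (3 of 7, against 0.374%). It called Lss lower in tuft-like cells (1 of 7, against 0.0924%), and Insig1, Lss and Idi1 in regenerative-like cells (3 of 7, against 6.85%). The summed enterocyte markers were higher in +EIPA in these classes, without overlap in all but regenerative-like cells. The sum was at 1956 and 1562 CPM in -EIPA and 3678 and 3518 in +EIPA in Goblet/Paneth-like cells, and at 2624 and 2207 against 4279 and 4033 in EEC-like cells. It was at 2971 and 1392 against 3926 and 3680 in tuft-like cells, and at 4685 and 2472 against 5848 and 4628 in regenerative-like cells. Within the Goblet/Paneth-like class, the cluster led by Agr2, Fcgbp and Tff3 held 42.6% and 38.2% in -EIPA and 32.02% and 27.7% in +EIPA. The part of these in the results was not tested.

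In EEC-like cells Insig1 was at 156 and 131 CPM in -EIPA and 106 and 93.7 in +EIPA (-0.47, SE 0.13, edgeR adjusted p = 0.660). In regenerative-like cells, which held 117 to 408 cells per library, Insig1 was at 132 and 100.3 CPM in -EIPA against 74.6 and 59.8. Srebf2 went the other way there, with 67.3 and 74.3 CPM in -EIPA and 80.2 and 83.5 in +EIPA (0.30), 1 of 7 higher without overlap where 17.8% of genes were. Over all pairs of a gene and a class, 44 of 49 were lower with EIPA in both experiments, where 44.2% of all gene and class pairs were.

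The third question was whether Dox in the CRISPR line gave the same direction. With 1 library in each condition there was no test, and the intervals below cover counting error only. The Dox ratios are ratios of CPM without TMM scaling, unlike the log2 fold changes of the EIPA fits, so their sizes are not directly comparable. In the sum over all cells, every one of the 7 genes was lower with Dox, where 52.5% of all genes were. The mix of classes differed too: proliferating cells made up 37.7% in -Dox and 24.99% in +Dox, enterocyte-like cells 23.9% and 29.5%, and Goblet/Paneth-like cells 9.73% and 17.6%, and the summed Paneth markers were at 6813 and 22868 CPM. Their part in the result was not tested. Lss was at 65.7 CPM in -Dox and 40.6 in +Dox, a log2 ratio of -0.69 (95% interval -0.73 to -0.66). Idi1 was at 306 and 197 (-0.64), Insig1 at 188 and 138 (-0.45), and Sqle at 177 and 130.1 (-0.44). Fdft1 (-0.38), Hmgcs1 (-0.36) and Srebf2 (-0.19) had smaller ratios. A level at least 20% lower was seen for 6 of 7, all but Srebf2, where 17.3% of genes were that much lower.

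Proliferating cells held the widest gap of Insig1, with 163 CPM in -Dox and 90.6 in +Dox (-0.85, interval -0.89 to -0.81). Hmgcs1 was at 284 and 181 there (-0.66). In proliferating cells 6 of 7 genes were at least 20% lower, where 11.5% of genes were. In enterocyte-like cells it was also 6 of 7, where 29.1% of genes were. Insig1 was at 261 and 204 CPM in that class (-0.35, interval -0.39 to -0.32) and Hmgcs1 at 414 and 326 (-0.35). Both were lower with Dox in the class where the EIPA libraries overlapped. The class was made up differently with Dox too: the cluster led by Reg3a, Apoc3 and Fabp1 held 39.6% of it in -Dox and 57.0% in +Dox, and the summed enterocyte markers were at 37452 and 61758 CPM. Their part in the result was not tested.

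In ISC-like cells 6 of 7 genes were at least 20% lower, where 12.4% of genes were, and Insig1 was at 108 CPM in -Dox and 69.7 in +Dox (-0.63). This count depended on the clusters. With clusters made without correction for library, 1 of 7 was, and Fdft1 had a log2 ratio of 0.074. The share of all genes for those clusters is not given here. There the class joined 2 clusters, one of which drew 98.2% of its cells from +Dox and had 1 ISC marker among its 10 leading genes. In the other classes the count was 5 of 7 in Goblet/Paneth-like cells (18.1% of genes), 6 in EEC-like cells (14.2%), 7 in tuft-like cells (26.8%) and 5 in regenerative-like cells (33.1%). The summed enterocyte markers were higher in +Dox in each of these classes: 3065 and 5832 CPM in Goblet/Paneth-like, 3764 and 5913 in EEC-like, 2229 and 8174 in tuft-like and 5755 and 8272 in regenerative-like cells, -Dox first. Within the Goblet/Paneth-like class, the cluster led by Agr2, Fcgbp and Tff3 held 39.3% in -Dox and 24.6% in +Dox. The enterocyte markers were at 1336 and 1618 CPM in ISC-like and 2009 and 2472 in proliferating cells. The part of these in the counts was not tested. Tuft-like cells numbered only 71 and 53, and the intervals of Srebf2 and Insig1 there reached past 0. Srebf2 was not lower with Dox in EEC-like (0.09, interval -0.10 to 0.29) or regenerative-like cells (0.08, interval -0.13 to 0.30). Over all pairs of a gene and a class, 43 of 49 were lower in both EIPA experiments and with Dox, where 31.6% of all pairs were. The WT and CRISPR libraries share no control.

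In a fit chosen after seeing the data, the -Dox and +Dox libraries were added as another block beside the 2 EIPA experiments, with EIPA and Dox as 1 effect. In this fit edgeR called 2 of 7 genes lower in the sum over all cells, where 2.15% of genes were called lower, and 2 of 7 in ISC-like cells, where 0.277% were. It called 6 of 7 in proliferating cells (0.944% of genes) and 2 of 7 in enterocyte-like cells, where 7% of genes were called lower. In the other classes it called 3 of 7 in Goblet/Paneth-like (0.954%), 5 in EEC-like (0.35%), 1 in tuft-like (0.0636%) and 3 in regenerative-like cells (6.7%).

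**Figure D3:**
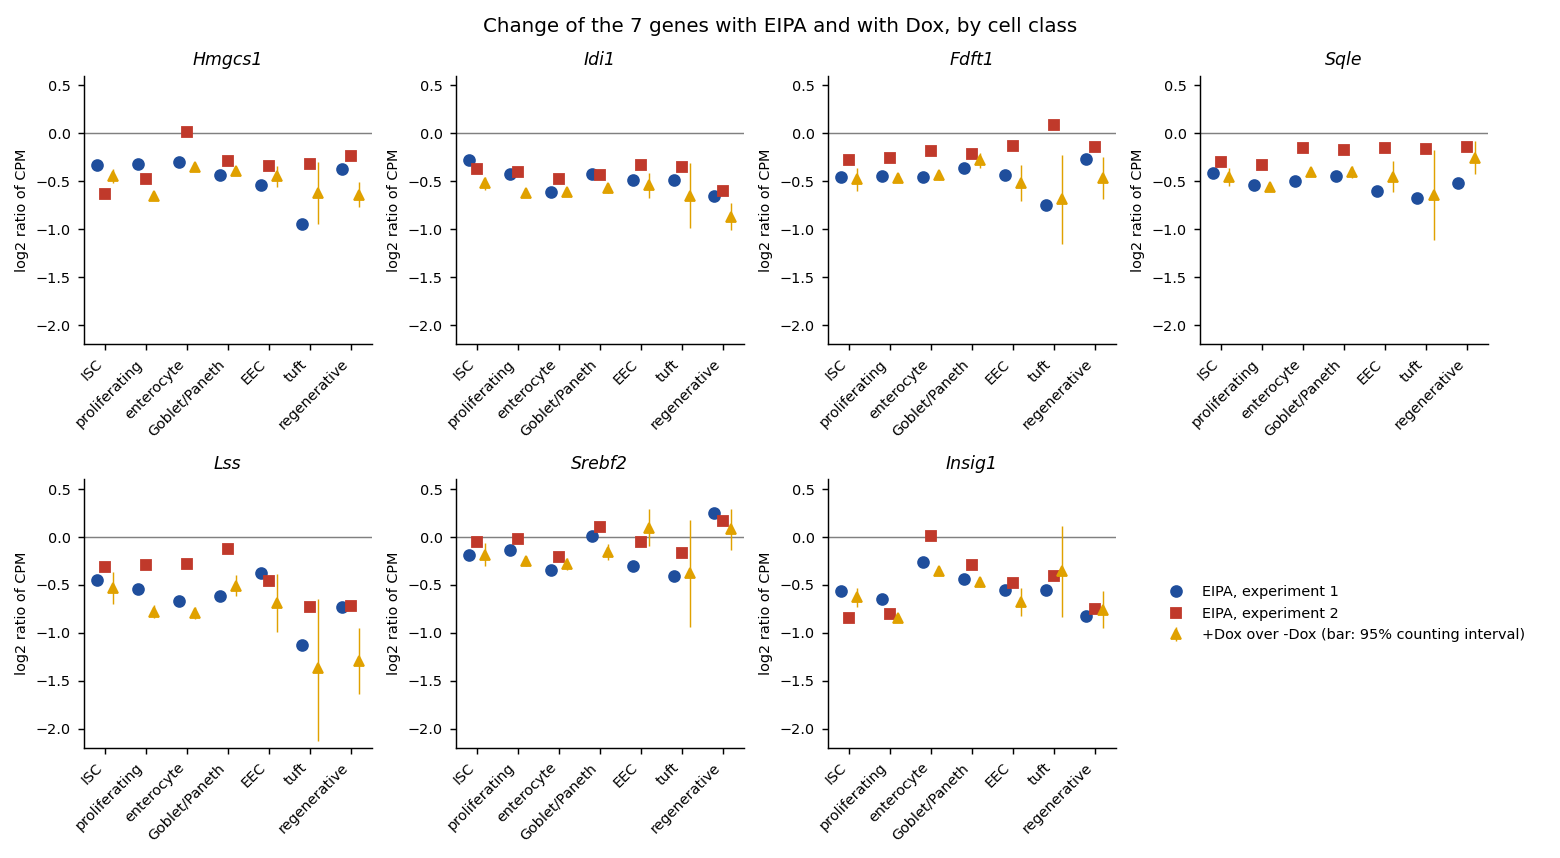
log2 ratio of CPM (vertical axes), +EIPA over -EIPA in experiments 1 and 2 and +Dox over -Dox (bars: 95% counting interval), for the 7 genes in 7 classes (horizontal axis, names without "-like"). Nearly all points lie below 0. Insig1 and Hmgcs1 lie near 0 in experiment 2 in enterocyte-like cells, and Fdft1 lies above 0 in experiment 2 in tuft-like cells. Srebf2 lies above 0 in regenerative-like cells, with EIPA in Goblet/Paneth-like cells and with Dox in EEC-like cells.

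The ratios were also counted below the level of classes. Of 20 clusters with at least 50 cells in each WT library, Idi1 was lower with EIPA in both experiments in 19, Sqle in 18, Lss and Insig1 in 17, Fdft1 in 16, Hmgcs1 in 15 and Srebf2 in 12. Over 5563 genes with a mean of at least 20 CPM, 43.9% of the gene and cluster pairs were. Of 19 clusters with enough cells with and without Dox, all 19 were lower with Dox for 6 genes, and 16 for Srebf2, where 62% of gene and cluster pairs were. Clusters of a library share its cells' preparation and are not replicates.

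The rest of the pathway was read from the lists, again with EIPA. Of the 16 sterol synthesis enzymes outside the 7 genes, 16 had a log2 fold change below 0 in proliferating cells (median -0.28, against 0.00 over all genes) and 14 in ISC-like cells (median -0.21). None passed edgeR's test, and with the replicate block 12 were called lower in proliferating cells, where 1.85% of genes were, and 5 in ISC-like cells, where 2.37% were. Acat2, which makes acetoacetyl-CoA, was at 146 and 111 CPM in -EIPA proliferating cells and 86.4 and 87.5 in +EIPA (-0.50, SE 0.13, adjusted p = 0.823, with the replicate block 0.0123). Mvk, mevalonate kinase, was at 67.2 and 59.3 CPM against 49.8 and 44.9 (-0.36, SE 0.08, adjusted p = 0.737, with the block 0.00266). Each of these +EIPA levels lay below both -EIPA levels.

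In enterocyte-like cells 12 of the 16 enzymes were below 0 (median -0.10, against -0.04 over all genes), and the block called 1 lower, where 0.921% of genes were. That gene was Lbr, a sterol reductase that is also the lamin B receptor, at 49.4 and 58.1 CPM against 33.7 and 29.9 (-0.63, SE 0.14, adjusted p = 0.128, with the block 0.0363). The SREBP regulators outside the 7 genes had medians of 0.07 in ISC-like, 0.03 in proliferating and 0.03 in enterocyte-like cells. Srebf1, which encodes the factor for fatty acid genes, was at 19.4 and 20.4 CPM in -EIPA ISC-like cells against 24.9 and 24.4 in +EIPA (0.38, SE 0.10, adjusted p = 0.9996, with the block called higher at 0.0137, where 3.35% of genes were).

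Uptake genes had medians near 0: 0.04 in ISC-like, -0.01 in proliferating and -0.03 in enterocyte-like cells, with none past edgeR's test. Members went both ways. The block called 2 of 10 lower and 1 higher in proliferating cells, where 1.85% and 2.97% of genes were, and 2 lower and 2 higher in regenerative-like cells, where 6.85% and 11.7% were. It called none in ISC-like or enterocyte-like cells.

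Efflux and esterification genes lay in the other direction in several classes. In enterocyte-like cells all 7 tested had a log2 fold change above 0 (median 0.55). None passed edgeR's test, and the block called 2 higher, where 3.84% of genes were called higher. Soat2, the acyltransferase that esterifies cholesterol in the gut, was at 30.2 and 24.1 CPM in -EIPA and 44.1 and 40.7 in +EIPA (0.77, SE 0.16, adjusted p = 0.126, with the block 0.0184). Abca1, which loads cholesterol on HDL, was at 0.514 and 0.121 CPM against 2.96 and 2.44 (3.23, SE 0.56, adjusted p = 0.106, with the block 0.00873). These Abca1 levels rest on 15 and 4 UMIs in -EIPA and 114 and 114 in +EIPA. In Goblet/Paneth-like cells 6 of 7 were above 0 (median 0.58), and the block called 3 higher, where 3.85% of genes were called higher. The median was 0.44 in EEC-like cells (7 of 8 above 0), 0.38 in tuft-like cells (6 of 7) and 0.19 in regenerative-like cells (4 of 6). In ISC-like and proliferating cells the medians of the list were 0.07 and 0.04. The block called 1 higher in proliferating cells (2.97% of genes), 1 in regenerative-like cells (11.7%) and 1 in EEC-like cells (177 of 12296 genes). In the sum over all cells it called 4 of 8 higher (710 of 15890 genes), and it called none in ISC-like or tuft-like cells. The summed enterocyte markers given above were higher in +EIPA in the 7 classes, without overlap in all but regenerative-like cells, and 6 of the 7 efflux genes tested were higher in enterocyte-like than in ISC-like cells. Their part in these values was not tested.

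Fatty acid synthesis genes were mixed, with medians of 0.02 in ISC-like, -0.06 in proliferating and -0.27 in enterocyte-like cells. In regenerative-like cells 11 of 12 were below 0 (median -0.36), 9 of them without overlap, where 30.7% of genes were lower without overlap. The block called 5 lower, where 6.85% of genes were, and 1 higher, where 11.7% were. In other classes the block called 1 lower and 3 higher in ISC-like (2.37% and 3.35% of genes), 2 lower in proliferating (1.85%), 2 lower in enterocyte-like (0.921%) and 2 higher in Goblet/Paneth-like cells (3.85%). Fads2, a desaturase, was at 98.0 and 69.2 CPM in -EIPA and 42.5 and 29.4 in +EIPA (-1.13, SE 0.24, regenerative-like, edgeR adjusted p = 0.0707, with the block 6.77e-13). The only listed gene past edgeR's test without the block was the one above 0 in that class, Me1, malic enzyme, where 1.33% of genes were called higher. It was 1 of 12 in this list. No gene of the other lists was called in this class, and no gene of any list in the other classes. Me1 was at 66.7 and 61.8 CPM in -EIPA and 110.1 and 121 in +EIPA (0.95, SE 0.16, adjusted p = 0.0361). The call was lost with clusters made without correction for library (0.30, adjusted p = 0.9999), where edgeR called 0 of 10339 genes in this class and 87 had an unadjusted p under 0.05, with library size in place of TMM (adjusted p = 0.0558), and without the first or the second +EIPA library (0.130 and 0.315). In enterocyte-like cells Fads1, another desaturase, was at 17.0 and 22.8 CPM against 9.33 and 9.58 (-0.94, SE 0.16, adjusted p = 0.106, with the block 0.0149). Scd1, also a desaturase, was at 271 and 181 against 337 and 385 (0.80, SE 0.23, adjusted p = 0.193, with the block 0.0544).

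**Figure D4:**
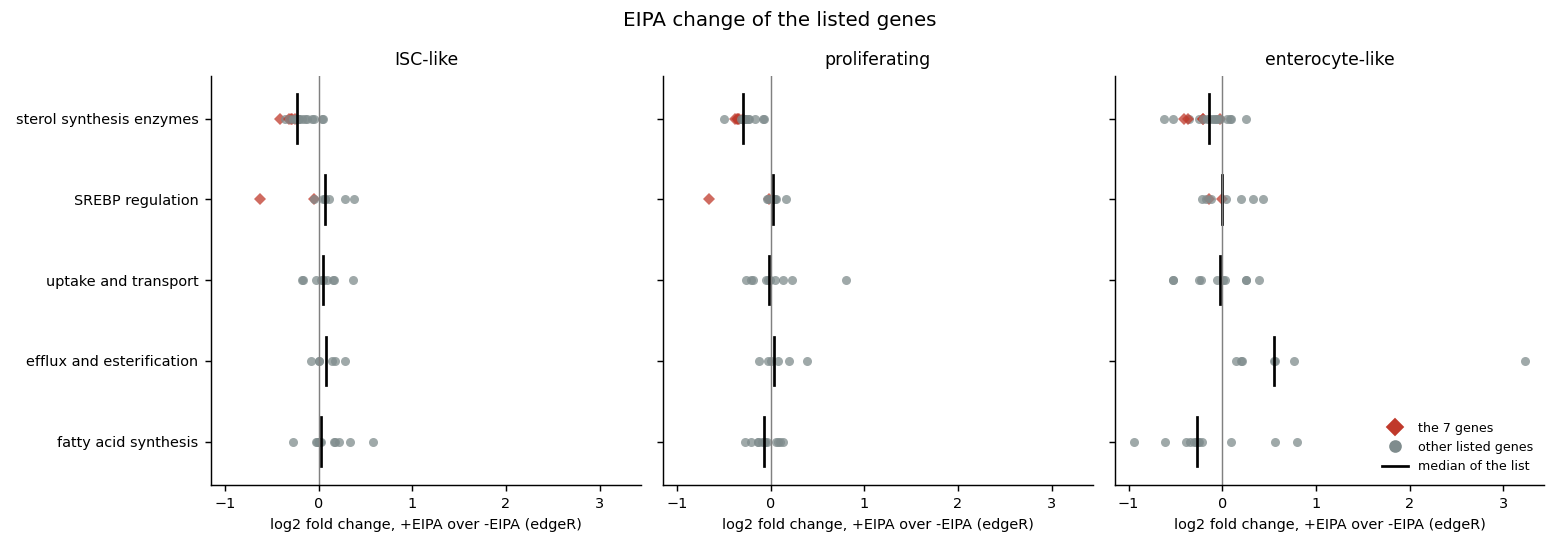
log2 fold change of +EIPA over -EIPA (edgeR, horizontal axis) for each listed gene in ISC-like, proliferating and enterocyte-like cells, with the 7 genes as red diamonds and the median of each list as a bar. Of 21 sterol synthesis enzymes, 19 lie left of 0 in ISC-like and 21 in proliferating cells (medians -0.24 and -0.29), and efflux genes right of 0 in enterocyte-like cells (median 0.55).

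The pattern most like that of the 7 genes was sought over 42 sums of a class in a library, among 5563 genes with a mean of at least 20 CPM. The sums share libraries, depth and classes, so the correlations are descriptions. Over classes and libraries the nearest genes included Mvk (Pearson r = 0.86), Ak4 (0.85) and Msmo1 (0.83), then Cyp51, Tmem41b, Atf4, Pank3 and Atl2 (0.81 to 0.80). After the class means were subtracted they were Klf5 (0.90) and Mvk (0.89), then Atp11b, Fosb, Clk1, Clcn3, Elf1, Rdh11, Stard4 and Ubxn4 (0.85 to 0.81). Mvk was thus in both lists. Among the 7 genes, Hmgcs1 and Insig1 were the closest pair over classes and libraries (r = 0.92). Pairs with Srebf2 ran from -0.05 (Idi1) to 0.61 (Hmgcs1), and pairs without it from 0.32 to 0.92. After the class means were subtracted, pairs with Srebf2 ran from 0.22 (Idi1) to 0.75 (Sqle), and pairs without it from 0.39 to 0.91.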

How the data were processed

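The 6 libraries (WT -EIPA, n = 2; WT +EIPA, n = 2; CRISPR -Dox and CRISPR +Dox, n = 1 each) were made with 10x 3' chemistry. The authors aligned reads to mm10 and deposited raw counts of UMIs per gene and cell barcode, made with Cell Ranger 6.1.2 and neither normalized nor filtered for doublets or ambient RNA. Reads that match a close copy as well (Idi2 for Idi1, Acat3 for Acat2) may be missing from the counts. The 7 genes and the lists were chosen with earlier results of these data known.

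A barcode was kept where it held 1000 genes or more and its mitochondrial UMIs were under 20%. Pearson residuals (overdispersion 100) of 3000 genes, without 61 list genes, were reduced to 45 principal components, corrected for library by Harmony and clustered by the Leiden algorithm (20 neighbours, resolution 0.8) in Python 3.11.15 with numpy 2.4.6, scanpy 1.11.5 and igraph 0.11.9. Of 24 clusters, 18 took a name from markers and 6 stayed unnamed (11.6% to 15.6% of a library's cells). Library pairs shared 0.25% to 0.56% of barcodes. The threshold that Scrublet set marked 0.0476% and 0% of cells in WT -EIPA 1 and WT +EIPA 1 and so had not worked. Doublets were kept, and the 10% of cells with the highest scores removed as an alternative.

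Counts were summed per library and class, and tested with edgeR 4.0.16 in R 4.3.3 (quasi-likelihood test after TMM and filterByExpr, with a threshold of 0.05 after Benjamini-Hochberg adjustment over the whole table). The scripts were tested on simulated data. Gene positions are those of GENCODE on GRCm38. The study tested single cells. Cells were not used as replicates here. The labels do not say that the 2 libraries of a WT group came from separate animals, so p-values measure the spread between these libraries. The 7 genes were named in every comparison. Of each list, up to 5 genes past the threshold were named, or otherwise some of the 3 with the smallest p. Fads2 in regenerative-like cells was named outside this rule. Some genes and the values that rest on them are not reported here.

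The study's source data pair the libraries by replicate number. Deviations from the group means of same-numbered libraries correlated over genes with r = 0.69 in all cells and 0.20 (tuft-like) to 0.73 (proliferating) within classes. Alternatives were the replicate block, DESeq2 1.42.0, library size, no filter, other cell limits, other clusters and leaving out each library.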

Additional observations from a re-analysis of the deposited data

Results flagged for a closer look

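Srebf2 was higher with EIPA in both experiments in Goblet/Paneth-like cells (log2 fold change 0.14) and in regenerative-like cells (0.30), and lower in both in the 5 other classes. Without the first -EIPA library it had 0.23 in Goblet/Paneth-like and 0.24 in regenerative-like cells, and without the second 0.06 and 0.37. In ISC-like and proliferating cells its sign changed without the first (0.008 and 0.06), but not without the second (-0.11 and -0.08). This difference between classes was not tested, and edgeR called Srebf2 in neither class (adjusted p = 0.951 and 0.446).

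The EIPA difference of Fads1, a fatty acid desaturase, was lower in enterocyte-like than in ISC-like cells by -0.89 on the log2 scale (SE 0.17, edgeR interaction, adjusted p = 0.0408). No other gene of any list passed this test, where 1.2% of 13090 genes did. With clusters made without correction for library it was -0.55 (adjusted p = 0.282), and with library size in place of TMM -0.98 (adjusted p = 0.0368). In ISC-like cells Fads1 was at 56.6 and 51.7 CPM in -EIPA and 51.5 and 50.6 in +EIPA. In enterocyte-like cells it was at 17.0 and 22.8 CPM against 9.33 and 9.58. Both +EIPA libraries were below both -EIPA libraries in either class. The level of Fads1 was also lower in enterocyte-like than in ISC-like cells (log2 fold change -1.55, SE 0.20). The enterocyte-like class was made up differently in +EIPA, with higher summed enterocyte markers, as given above. The part of these in the result was not tested.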

How the results depend on the processing

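The reported EIPA fit called 0 of 7 genes in every class. With the replicate block, edgeR called 1 in all cells, 6 in ISC-like, 6 in proliferating, 3 in Goblet/Paneth-like, 3 in EEC-like, 1 in tuft-like, 3 in regenerative-like and 0 in enterocyte-like cells. The share of all genes called lower with this block ran from 0.0924% in tuft-like to 6.85% in regenerative-like cells. With the Dox pair as another block, an alternative chosen after seeing the data, it called 6 in proliferating, 5 in EEC-like, 3 in Goblet/Paneth-like and regenerative-like, 2 in all cells, ISC-like and enterocyte-like, and 1 in tuft-like cells. The share of all genes called lower in this fit ran from 0.0636% in tuft-like to 7% in enterocyte-like cells. The pairing in this fit sets Dox beside EIPA as 1 effect. Without a filter on low counts, 1 was called in each of ISC-like, proliferating, tuft-like and regenerative-like cells, where 0.38%, 0.189%, 0.064% and 1.6% of genes were called lower. DESeq2 called 1 in proliferating cells, where 0.343% of genes were called lower. Leaving out 1 library at a time gave 0 to 2 calls in tuft-like and in regenerative-like cells, with 2 in each without the second -EIPA library (0.104% and 2% of genes called lower), and 0 in the other classes. The cause was not tested.

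With clusters made without correction for library, the difference of the EIPA effect between enterocyte-like and ISC-like cells gave 1 call, and 1 of 7 genes was at least 20% lower with Dox in ISC-like cells, against 6. There, Fdft1 had a log2 ratio with Dox of 0.074 in ISC-like cells and Hmgcs1 of 0.13 in regenerative-like cells. Leaving out 1 library at a time, the median log2 fold change of the 7 genes in enterocyte-like cells ran from -0.39 to 0.032, above 0 without the first -EIPA library. Over all alternatives this median ran from -0.43 to -0.27 in proliferating and from -0.41 to -0.26 in ISC-like cells. It ran from -0.31 to -0.10 in all cells, from -0.37 to -0.12 in Goblet/Paneth-like and from -0.47 to -0.26 in EEC-like cells. The ranges were -0.59 to -0.20 in tuft-like and -0.44 to -0.06 in regenerative-like cells. With library size in place of TMM the median of all genes with EIPA moved from -0.04 to -0.17 in enterocyte-like cells. Cells called doublets by the threshold of Scrublet were not removed, because it marked almost none in 2 libraries, and the 10% with the highest scores were removed in its place. With 2 libraries a group and 1 a CRISPR condition, small differences such as those of Srebf2 cannot be told from the spread between libraries. The reported EIPA fit has no block, so differences between experiments 1 and 2 stay in this spread. It called none of the 7 genes in any class, and thus does not tell their larger EIPA differences from this spread. The fit with the replicate block, which takes out differences between the experiments, called some of these genes, as given above.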

Other observations

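Barcodes with under 1000 genes, which were outside the classes and the main fits, also held the 7 genes. Some of them, with at least 500 genes, entered the alternative with looser limits on cells. In the sum per library of all barcodes under 1000 genes, Idi1 was at 190.0 and 256 CPM in -EIPA, 155 and 127 in +EIPA, 212 in -Dox and 112 in +Dox. Insig1 was at 217 and 133 CPM in -EIPA, 137 and 107 in +EIPA, 251 in -Dox and 158 in +Dox. Of the 7 genes, 5 were lower in +EIPA without overlap (Hmgcs1, Idi1, Fdft1, Lss and Srebf2), where 23.1% of 15890 genes were, and Insig1 and Sqle overlapped.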
